A study of Mus musculus with 3 samples.

Results

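The glucose reabsorption transporters of the kidney are described here as 4 genes out of the 32285 gene rows in each count table: Slc5a2, Slc5a1, Slc2a2 and Slc2a1. The rows were chosen by gene symbol alone, and each symbol matched 1 gene identifier. Male mice were studied at 28 weeks of age as 3 groups: db/m mice on a control diet free of fructose, db/db mice on that same diet, and db/db mice on a diet containing 60% fructose. Each diet began at 8 weeks of age and lasted 20 weeks, and whole kidneys were dissociated for droplet single-cell RNA sequencing. The db/db mouse carries 2 mutant copies of the leptin receptor gene in every cell and is obese and diabetic, while db/m carries 1 mutant and 1 normal copy. Each group is 1 library, and the number of mice pooled in it is not given in the sources used here.

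Filtered glucose is taken back by the proximal tubule in 2 steps, first into the cell across the apical membrane against its gradient by sodium-coupled transporters of the SGLT family, then out across the basolateral membrane by facilitative transporters of the GLUT family. SGLT2, encoded by Slc5a2, and GLUT2, encoded by Slc2a2, are known for the early proximal tubule, and SGLT1, encoded by Slc5a1, for the late proximal tubule. GLUT1, encoded by Slc2a1, is a widely used glucose carrier that supplies glycolysis in later nephron segments. SGLT2 is the target of the gliflozin drugs given in diabetes.

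Slc5a2 (ENSMUSG00000030781) lies on chromosome 7 from 128265657 to 128272430 of the mm10 build, with 14 exons in its principal transcript in GENCODE M21. Slc5a1 (ENSMUSG00000011034) lies on chromosome 5 from 33104219 to 33162870 with 15 exons. Slc2a2 (ENSMUSG00000027690) lies on chromosome 3 from 28697903 to 28731359 with 11 exons. Slc2a1 (ENSMUSG00000028645) lies on chromosome 4 from 119108711 to 119137983 with 10 exons. All 4 are on the plus strand, and the counts are for whole genes.

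The DNA just before the start is shown for 3 of the 4 members, because the 2 GLUT genes were found in different parts of the nephron and Slc5a1 led in a class other than the proximal tubule. RefSeq promoter sequences of GRCm38.p6 held no entry for Slc5a2. The windows of 250 bases before each start were searched on both strands for 5 motifs. These are an E-box, a GC box, a TATA box, the core of the HNF1 motif and a CAAT box, spelled out after the sequences, and no matches overlapped in these windows. Capitals mark each match, which is a match of letters only and not a site. The windows span chr5:33103969-33104218, chr3:28697653-28697902 and, cut short where the annotated gene begins, chr4:119108495-119108710, all on the plus strand.
Slc5a1: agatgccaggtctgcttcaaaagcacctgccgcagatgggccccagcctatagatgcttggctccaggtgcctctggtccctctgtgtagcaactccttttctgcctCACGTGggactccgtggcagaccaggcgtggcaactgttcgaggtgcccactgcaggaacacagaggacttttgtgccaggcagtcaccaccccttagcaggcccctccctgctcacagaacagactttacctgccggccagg
Slc2a2: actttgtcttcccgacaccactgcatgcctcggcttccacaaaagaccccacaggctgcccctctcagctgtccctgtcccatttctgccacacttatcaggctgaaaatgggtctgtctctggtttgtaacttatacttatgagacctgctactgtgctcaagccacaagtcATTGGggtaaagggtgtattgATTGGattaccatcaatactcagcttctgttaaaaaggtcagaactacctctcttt
Slc2a1: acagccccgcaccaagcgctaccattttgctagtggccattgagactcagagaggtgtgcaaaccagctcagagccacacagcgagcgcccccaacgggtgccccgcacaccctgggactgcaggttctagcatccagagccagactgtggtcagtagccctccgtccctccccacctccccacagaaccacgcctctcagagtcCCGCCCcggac
The E-box (CACGTG) stood once before Slc5a1 and was present in 6.02% of 32851 RefSeq windows of the same length. The CAAT box (CCAAT), whose minus-strand reading is ATTGG, stood 2 times before Slc2a2 and was present in 33.8% of windows. The GC box (GGGCGG), whose minus-strand reading is CCGCCC, stood 2 times in the Slc2a1 window, with 1 match in the 34 bases left out, and was present in 32.7% of windows. The G and C content was 60.0% for Slc5a1, 47.2% for Slc2a2 and 66.4% for Slc2a1, against a median of 52.4% over all windows. The core of the HNF1 motif, GTTAAT, was present in 6.43% of windows and in none of these 3. The same was true of the TATA box, searched as TATAAA and present in 12.4%.

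The libraries held 13524 (db/m), 26513 (control-fed db/db) and 20383 (fructose-fed db/db) barcodes, and 9940, 16227 and 16049 cells were kept, at median depths of 1679, 1628 and 1531 UMIs (unique molecular identifiers, 1 per captured RNA molecule). The median mitochondrial share of UMIs differed between them, at 15.1%, 24.6% and 10.6%. Kept cells of different libraries shared 206 to 363 barcode sequences per pair of libraries. Proximal tubule-like cells numbered 5762, 6217 and 7939. All 12 marker genes used to name the class were detected there in each library. They were detected in lymphocyte-like cells too, so detection alone does not set the class apart. In the same order, 3.08%, 19.9% and 8.09% of cells stayed in clusters without a name. The proximal tubule-like cells of each library came mostly from different clusters (clusters 0, 1 and 2 in db/m, 11, 20 and 21 in control-fed db/db, 19 and 20 in fructose-fed db/db), except that cluster 20 held 1357 control-fed and 3300 fructose-fed db/db cells. Levels are CPM, meaning UMIs of the gene per 1000000 UMIs of the class and library. With 1 library per group nothing was tested, and every 95% interval covers counting error only. A ratio past 1.5-fold is counted as higher or lower.

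Free RNA sets the floor for all 4 genes. Lymphocyte-like cells, which should lack the proximal tubule transcripts, held the 12 proximal tubule markers at 50.4%, 52.5% and 66.1% of their level over the whole library in the db/m, control-fed db/db and fructose-fed db/db libraries. In those same cells Slc5a2 stood at 171, 199 and 529 CPM, from 82, 74 and 95 cells with median depths of 1669, 1494 and 1430 UMIs. Values at or below this floor are read as background.

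Slc5a2, the apical transporter of high capacity, was a proximal tubule transcript in all 3 libraries. It stood at 758 CPM in the proximal tubule-like cells of db/m (95% interval 741 to 774), 1071 in control-fed db/db (1052 to 1091) and 1403 in fructose-fed db/db (1382 to 1423). After thinning to 1000 UMIs per cell it was seen in 44.4%, 56.2% and 59.9% of these cells, against 13.6%, 14.3% and 27.9% of lymphocyte-like cells. Without thinning the shares in proximal tubule-like cells were 55.5%, 67.3% and 68.3%, at median depths of 1520, 1607 and 1484 UMIs. Among the 11 classes that reached 50 cells in all 3 libraries, the lowest proximal tubule value lay above the highest value of any other class, which was the 529 CPM of lymphocyte-like cells. The other 10 of these had means of 107 to 300 CPM, and each overlapped its neighbour in the order over the range of the 3 libraries. Of those classes, the erythroid-like and the pericyte, mesangial and smooth muscle-like cells lay above lymphocyte-like cells in 2 libraries, and the intercalated, thick ascending limb, connecting tubule and principal, thin limb and endothelium-like cells in 0.

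Slc2a2, the basolateral carrier through which glucose leaves the proximal tubule cell, had the same first class. Its level was 116 CPM in db/m (95% interval 110 to 123), 197 in control-fed db/db (188 to 205) and 212 in fructose-fed db/db (204 to 220). It was seen in 10.9%, 17.7% and 18.8% of proximal tubule-like cells after thinning, against 3.39%, 4.76% and 4.92% of lymphocyte-like cells. The proximal tubule-like range did not overlap that of the next class, the pericyte, mesangial and smooth muscle-like cells (mean 71.6, range 46.0 to 95.5 CPM). Below it all classes overlapped, with lymphocyte-like cells in their midst at a mean of 47.5 CPM.

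Slc5a1, the apical transporter of low capacity and high affinity, had its highest level outside the proximal tubule. In thick ascending limb-like cells, the salt-reclaiming segment after the loop's bend, it stood at 151 CPM in db/m (95% interval 137 to 166), 107 in control-fed db/db (97.2 to 118) and 167 in fructose-fed db/db (156 to 179). Proximal tubule-like cells held 18.3 CPM in db/m (15.8 to 21.1), 37.4 in control-fed db/db (33.8 to 41.3) and 46.4 in fructose-fed db/db (42.7 to 50.3), so the 2 classes did not overlap. Of all Slc5a1 UMIs, 60.8%, 34.0% and 49.1% were in thick ascending limb-like cells and 27.8%, 32.4% and 34.6% in proximal tubule-like cells. Of the UMIs of all genes, thick ascending limb-like cells held 12.4%, 12% and 15.5% and proximal tubule-like cells 46.7%, 32.9% and 39.4%. The proximal tubule-like share of Slc5a1 was thus below the share of all UMIs in each library. Lymphocyte-like cells held Slc5a1 at 17.6, 22.1 and 36.5 CPM, from 3, 3 and 6 UMIs, so the db/m value of proximal tubule-like cells lay next to this floor. Free RNA alone, at the share measured from the 12 markers, would give 84.7%, 53.4% and 75.1% of the proximal tubule-like level and 10.3%, 18.6% and 20.9% of the thick ascending limb-like level. Thinned shares of cells were 1.99%, 3.87% and 4.09% in proximal tubule-like cells, 13.4%, 8.49% and 13.9% in thick ascending limb-like cells and 1.69%, 1.59% and 6.56% in lymphocyte-like cells. Proximal tubule-like, lymphocyte-like and the 8 further classes overlapped step by step in the order.

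Slc2a1 had the opposite placement to Slc2a2. Thin limb-like cells held 220, 160.4 and 216 CPM in db/m, control-fed db/db and fructose-fed db/db, from only 79, 50 and 83 cells, and connecting tubule and principal-like cells held 195, 132 and 158 CPM, and these 2 classes overlapped. Intercalated-like cells (mean 69.4 CPM) and thick ascending limb-like cells (57.1) followed and overlapped each other, and distal convoluted tubule-like cells (37.4) overlapped neither. In the proximal tubule-like cells it stood at 9.87 CPM in db/m (95% interval 8.07 to 11.9), 10.9 in control-fed db/db (9.004 to 13.1) and 7.83 in fructose-fed db/db (6.36 to 9.53), below the 11.8, 14.7 and 30.4 CPM of lymphocyte-like cells. Its proximal tubule value is therefore at the free RNA floor. Endothelium-like cells, at 10.9 to 14.1 CPM, lay there as well.

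**Figure D1:**
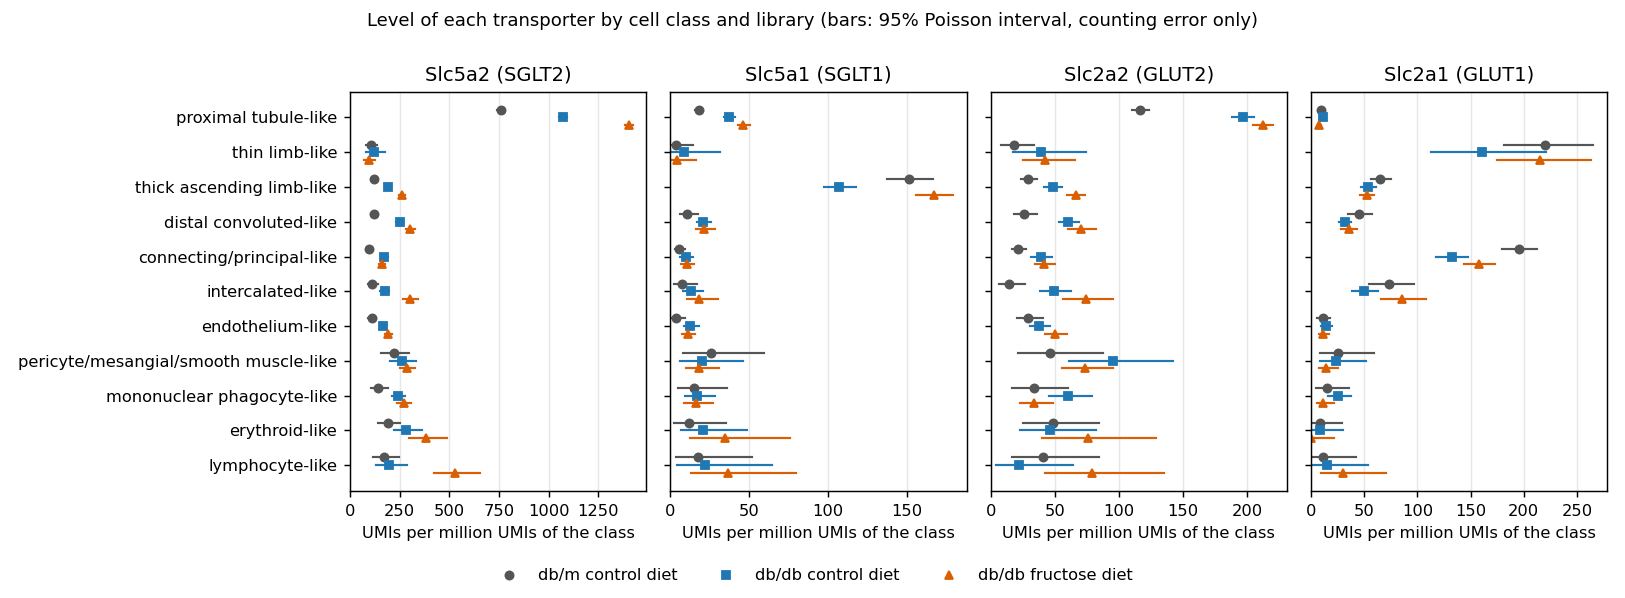
Level of each transporter (horizontal axis, UMIs per 1000000 UMIs of the class, linear) in 11 cell classes (vertical axis) and 3 libraries (grey circles db/m control, blue squares control-fed db/db, orange triangles fructose-fed db/db), with bars for the 95% Poisson interval. Slc5a2 and Slc2a2 stand highest in proximal tubule-like cells, Slc5a1 in thick ascending limb-like cells, and Slc2a1 in thin limb-like and connecting tubule and principal-like cells.

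The genes most like each member were taken over 33 profiles, 11 classes in 3 libraries, by Pearson correlation of log2(CPM + 10). The profiles of a library share its free RNA, so the values are descriptions. Slc5a2 was most like Slc34a1, the phosphate transporter of the proximal brush border (r = 0.971), then Slc4a4, the basolateral bicarbonate transporter (0.967), Acox3 (0.963), Snx29 (0.96) and Slc13a3 (0.958). Slc2a2 was most like Acnat2 (0.903) and Slc5a2 itself (0.902), then Slc6a19 (0.897), Cyp2d26 (0.888) and Slc4a4 (0.885). Slc5a1 was most like Slc12a1, the sodium, potassium and chloride cotransporter of the thick ascending limb (0.936), then Cldn10 (0.88), Cldn16 (0.872), Nccrp1 (0.848) and Umod (0.846). Slc2a1 was most like Efemp1 (0.954), Aldoa, a glycolytic enzyme (0.948), Sfn (0.942), Epcam (0.932) and Oat (0.931).

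Along the proximal tubule, cells were ordered by the share of late markers among the UMIs of 10 early and 7 late marker genes, none of them a member, and cut into 5 bins of equal cell number within each library. Cells with at least 5 marker UMIs were placed, which were 94.2%, 98.7% and 98.7% of the class. A bin is a range of this score and not a segment. The libraries did not cover the same range: the late share of marker UMIs was 24.7% in db/m, 12.7% in control-fed db/db and 14.5% in fructose-fed db/db. Atp11a, 1 of the late markers, moved with this, at 1127, 196 and 454 CPM. Without it the late shares were 15.7%, 11.1% and 11.8%. Some early markers moved as well. Slc34a1, the early marker with the highest level, stood at 4880, 5782 and 7458 CPM. Gldc stood at 181, 421 and 628 CPM, Slc4a4 at 1257, 1702 and 2341 and Slc5a12 at 406, 403 and 1125. Gatm, another early marker, did not rise, at 645, 625 and 623 CPM. Whether cells of the late segment were fewer, late markers lower in each cell or early markers higher in each cell was not tested.

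Slc5a2 was lower in each later bin in every library, though bins 1 and 2 of control-fed db/db were within counting error. Slc34a1 and Slc4a4, the 2 genes most like Slc5a2 over classes, are early markers of the score. Part of the fall of Slc5a2 along it is therefore built in. In db/m the 5 bins held 1393, 1168, 702, 393 and 242 CPM. In control-fed db/db they held 1435, 1431, 1173, 853 and 501 CPM, and in fructose-fed db/db 2118, 1947, 1507, 1016 and 489 CPM. The last bin was lower than the first by 5.76-fold in db/m, 2.86-fold in control-fed db/db and 4.33-fold in fructose-fed db/db. With Atp11a left out of the score the same differences were smaller, at log2 ratios of -1.83, -1.15 and -1.44 in place of -2.53, -1.52 and -2.11. The first bins of the 2 libraries on the control diet were close (log2 ratio 0.04, 95% interval -0.03 to 0.12), whereas the first bin of the fructose library stood above both. In the later bins the log2 ratios of control-fed db/db over db/m were 0.29, 0.74, 1.12 and 1.05. Bins of the same number spanned unlike score ranges, the first reaching a late share of 10% in db/m and 4.55% in control-fed db/db.

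Slc2a2 also went down along the score, with a smaller drop in db/db over bins that spanned unlike ranges. It went from 164 to 71.5 CPM in db/m (2.29-fold lower), from 207 to 171 in control-fed db/db (1.21-fold lower) and from 256 to 173 in fructose-fed db/db (1.48-fold lower). The last bins of both db/db libraries stood at 171 and 173 CPM (95% intervals 154 to 189.9 and 158 to 191). Both were within counting error of the 164 CPM in the first bin of db/m (146 to 183). The median late share of the last bin was 50% in db/m, 27.8% in control-fed db/db and 30% in fructose-fed db/db. With cuts common to all libraries, Slc2a2 went from 166 to 94.7 CPM in db/m. It went from 212 to 170 in control-fed db/db and from 243 to 173 in fructose-fed db/db.

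Slc5a1 went the other way in all 3 libraries, from 14.0 to 26.7 CPM in db/m, from 29.7 to 54.7 in control-fed db/db and from 35.5 to 74.9 in fructose-fed db/db. The log2 ratios of last to first bin were 0.93 (95% interval 0.24 to 1.66), 0.88 (0.41 to 1.36) and 1.08 (0.69 to 1.47). The bins between did not rise evenly, and the db/m values of bins 2 and 4 (10.7 and 17.0 CPM) lay below those before them. In db/m the values of bins 1, 2 and 4, and in fructose-fed db/db those of bins 1 and 2 (35.5 and 30.4 CPM), lay below lymphocyte-like cells and count as background. Slc2a1 stood at 6.57 to 14.1 CPM in every bin, with log2 ratios of last to first bin of 1.07 (95% interval 0.08 to 2.13) in db/m, 0.20 (-0.66 to 1.08) in control-fed db/db and 0.21 (-0.84 to 1.29) in fructose-fed db/db.

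**Figure D2:**
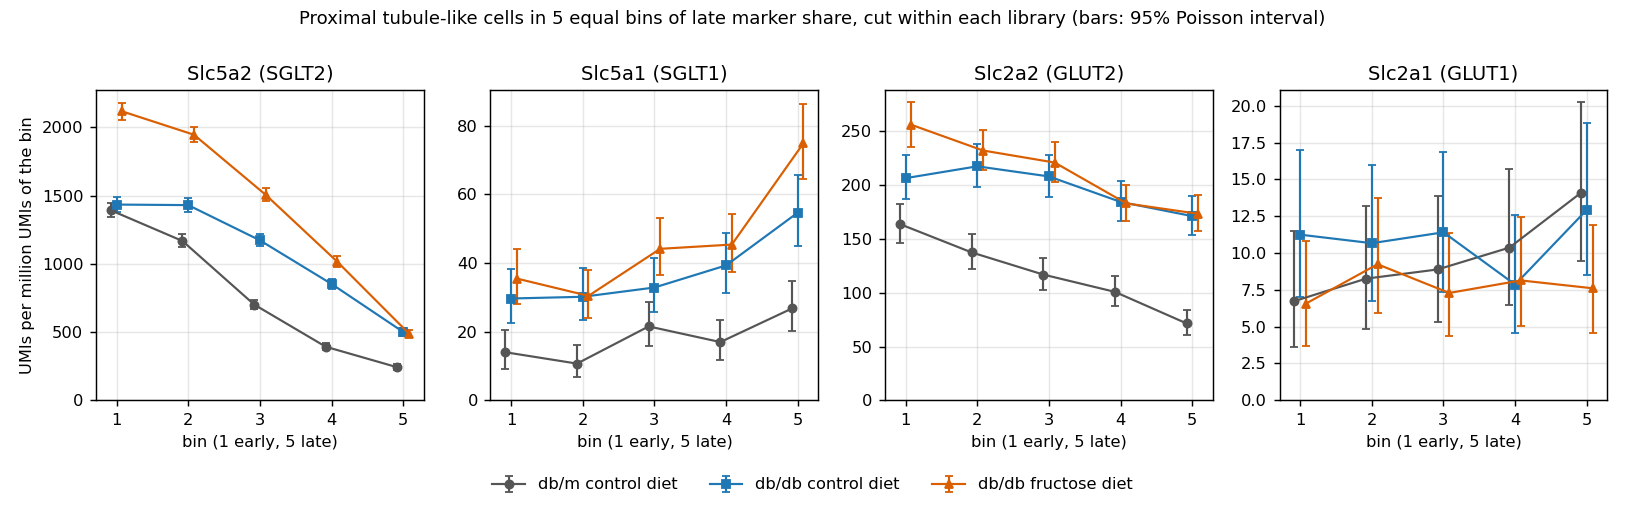
Level of each transporter (vertical axis, UMIs per 1000000 UMIs, from 0) in 5 equal bins of proximal tubule-like cells from early to late marker share (horizontal axis), cut within each library, with 95% Poisson intervals as bars. Slc5a2 and Slc2a2 are lower in bin 5 than in bin 1 and Slc5a1 is highest in bin 5 of all 3 libraries, while the intervals of Slc2a1 overlap throughout.

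Single cells showed the same opposition of Slc5a1 to Slc5a2 above background only in control-fed db/db. After thinning, Slc2a2 was seen in 13.2% of the db/m proximal tubule-like cells with an Slc5a2 UMI (95% interval 11.8 to 14.7) and 9.07% of those without (7.99 to 10.2). In control-fed db/db the shares were 18.8% and 16.3%, with intervals of 17.5 to 20.1 and 14.9 to 17.7. In fructose-fed db/db they were 20.5% and 16.2%. Slc5a1 was seen in 2.54% of control-fed db/db cells with an Slc5a2 UMI (2.03 to 3.13) and 5.59% of those without (4.74 to 6.54), and in fructose-fed db/db in 2.87% and 5.91%. In db/m the 2 shares were 1.78% and 2.15% and their intervals overlapped. Both Slc5a1 shares of fructose-fed db/db lay below the thinned share of lymphocyte-like cells given above and count as background. Those of db/m lay next to that floor. Cells of 1 library are not replicates.

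The first comparison the design gives is db/db against db/m on the same control diet. Past 1.5-fold in proximal tubule-like cells, 2 of the 4 members were higher and none lower, where 7.5% of 8625 measured genes were higher and 12.1% lower. The 2 were Slc5a1, at 18.3 against 37.4 CPM (2.04-fold, log2 1.03, 95% interval 0.78 to 1.28), and Slc2a2, at 116 against 197 CPM (1.69-fold, log2 0.76, 0.65 to 0.86). Slc5a2, at 758 against 1071 CPM, was 1.41-fold higher (log2 0.50, 0.46 to 0.54), short of the 1.5-fold mark. Slc2a1 had a log2 ratio of 0.14 with an interval that included 0 (-0.25 to 0.54). Over all measured genes the median log2 ratio was 0.0052.

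How cells were spread along the score moved with the Slc5a2 difference. The 3 score ranges with cuts common to all libraries, at late shares of 9.68% and 20.0%, held 19.2%, 24.1% and 56.7% of placed db/m cells from early to late, 42.7%, 32.8% and 24.4% of control-fed db/db cells, and 35.3%, 35.1% and 29.6% of fructose-fed db/db cells. Within 5 percentage points of a cut lay 47.2%, 65.4% and 66.9% of placed cells. Slc5a2 in db/m and control-fed db/db was 1389 and 1421 CPM in the early range, 1132 and 1044 in the middle range and 424 and 526 in the late range. The log2 ratios within ranges were thus 0.03, -0.12 and 0.31, and with the 3 ranges weighted equally the ratio was 0.022, against 0.50 over all cells. Leaving Atp11a out of the score gave 0.26. Slc34a1 and Slc4a4, the 2 genes most like Slc5a2 over classes (r = 0.971 and 0.967), are early markers of this score. Ranges of equal score therefore hold Slc5a2 partly fixed, and a smaller ratio within them is in part built in. Whether cell position or the level in each cell differed was not tested.

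Slc2a2 and Slc5a1 were higher in control-fed db/db in every range. Slc2a2 stood at 166 and 212 CPM in the early range of db/m and control-fed db/db, 136 and 199 in the middle and 94.7 and 170 in the late, with log2 ratios of 0.36, 0.55 and 0.84. Weighted equally this gave 0.55, below the 1.5-fold mark. Slc5a1 stood at 14.1 and 29.3 CPM, 11.2 and 35.9, and 22.2 and 53.2, with log2 ratios of 1.06, 1.68 and 1.26 and 1.32 weighted equally. With the free RNA share subtracted the Slc5a1 ratio was 2.72, since that share takes most of its db/m level. The db/m values of the early and middle ranges lay below the 17.6 CPM of lymphocyte-like cells. Slc2a1 had log2 ratios of 0.72 (95% interval -0.18 to 1.72), 0.27 (-0.58 to 1.17) and 0.040 (-0.63 to 0.68), each including 0.

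The proximal tubule-like cells of control-fed db/db held a median of 20.6% mitochondrial UMIs, against 14.6% in db/m and 9.19% in fructose-fed db/db. Keeping only cells with at most 30% mitochondrial UMIs gave 0.50 for Slc5a2, 1.01 for Slc5a1 and 0.79 for Slc2a2. Counting only UMIs outside the mitochondrial genome gave 0.56 for Slc5a2, 1.09 for Slc5a1 and 0.82 for Slc2a2. Adding cluster 10, which is led by mitochondrial genes and holds 3025 of its 3560 cells in control-fed db/db, gave 0.23 for Slc5a2, 0.99 for Slc5a1 and 0.58 for Slc2a2, the last just under the 1.5-fold mark.

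The second comparison is the 60% fructose diet against the control diet within db/db. It shares the control-fed db/db library with the first, so the 2 sets of ratios are not independent. None of the 4 members passed 1.5-fold in either direction in proximal tubule-like cells, where 11.4% of 8905 measured genes were higher and 1.44% lower. Slc5a2 went from 1071 to 1403 CPM (log2 0.39, 95% interval 0.36 to 0.42), Slc5a1 from 37.4 to 46.4 (0.31, 0.13 to 0.50) and Slc2a2 from 197 to 212 (0.11, 0.03 to 0.19). Slc2a1 went from 10.9 to 7.83 CPM (-0.48, -0.88 to -0.08), both at the free RNA floor.

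These ratios have to be read against a shift of all genes. The median log2 ratio of measured genes was 0.25 in this comparison, and size factors moved every ratio down by that amount. Scaled so, Slc5a2 stood at 0.14, Slc5a1 at 0.061 and Slc2a2 at -0.14, so the direction of Slc2a2 flipped, as it did when only UMIs outside the mitochondrial genome were counted (-0.071). Within the 3 common score ranges, early to late, the Slc5a2 ratios before this shift were 0.52, 0.48 and 0.20, from 1421 to 2044, 1044 to 1461 and 526 to 603 CPM. Slc5a1 had 0.14, 0.33 and 0.25, and Slc2a2 had 0.19, 0.12 and 0.03. Subtracting free RNA turned Slc5a1 to -0.28.

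**Figure D3:**
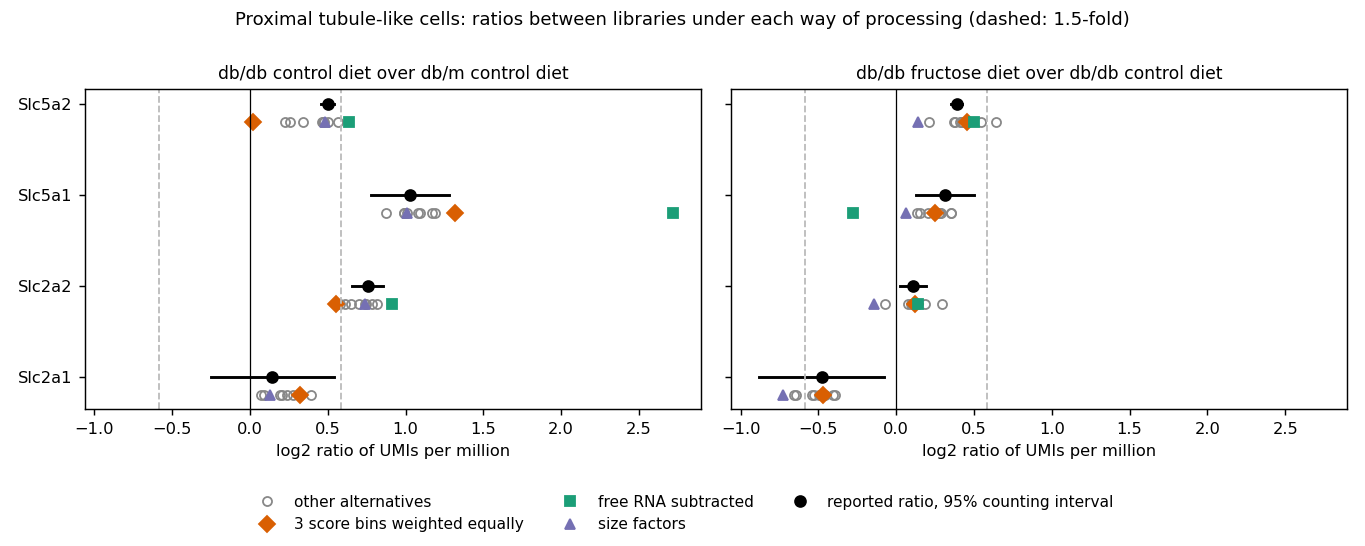
Log2 ratios of the 4 transporters between libraries in proximal tubule-like cells (horizontal axis) for control-fed db/db over db/m control (left) and fructose-fed db/db over control-fed db/db (right). Black points with bars are the reported ratios with 95% counting intervals, coloured and open symbols the same ratio under other processing, and dashed lines mark 1.5-fold. The Slc5a2 ratio of the left panel runs from 0.022 to 0.64, and Slc2a2 in the right panel lies on both sides of 0.

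Slc5a1 in thick ascending limb-like cells differed between libraries as well. Set against 151 CPM in db/m, the 107 CPM of control-fed db/db gave a log2 ratio of -0.50 (95% interval -0.70 to -0.30), opposite in sign to that in proximal tubule-like cells. From there to the 167 CPM of fructose-fed db/db the log2 ratio was 0.64 (0.47 to 0.81), or 0.44 with size factors. Between fructose-fed db/db and db/m it was 0.14 (-0.03 to 0.32). The mix of clusters in the class differed between libraries. Cluster 9 held 597, 703 and 781 cells with Slc5a1 at 159, 135 and 191 CPM. Cluster 7 held 578, 943 and 1407 cells at 122, 73.8 and 124 CPM. The db/m and control-fed db/db intervals overlapped in cluster 9 (141 to 177.9 and 118.5 to 153.9). They did not in cluster 7 (99.45 to 147.2 and 60.94 to 88.46). The median mitochondrial share of this class was 20.6%, 24.8% and 14.3%. With only cells of at most 30% mitochondrial UMIs the log2 ratios were -0.52 and 0.54, the second then under the 1.5-fold mark, as it was with UMIs outside the mitochondrial genome (0.51).

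The class also held cluster 8, led by Pappa2 and Nos1, with 38, 129 and 147 cells. Slc5a1 stood there at 114 CPM in control-fed db/db (95% interval 88.7 to 145) and 225 in fructose-fed db/db (194 to 260). Both genes are known from the macula densa, the salt-sensing plaque at the end of the thick ascending limb, where Nos1 encodes neuronal nitric oxide synthase. A split by Nos1 was chosen after the class values were seen. Thick ascending limb-like cells with a Nos1 UMI numbered 45, 153 and 147 and held Slc5a1 at 260 CPM in db/m (95% interval 181 to 362), 106 in control-fed db/db (81.3 to 136) and 313 in fructose-fed db/db (270 to 361). Cells without one held 146, 107 and 147 CPM. The Nos1 cells were higher in db/m and fructose-fed db/db, and in control-fed db/db the 2 values were the same within counting error. Median depths were 2826, 3637 and 3370 UMIs with Nos1 and 1828, 1687 and 1542 without. Split instead by Cldn16, a tight junction gene of the cortical thick limb, cells with a UMI held 204, 152 and 202 CPM of Slc5a1 and cells without 137, 97.2 and 157 CPM. A further gene known for the macula densa is Ptgs2, with a UMI in only 25, 50 and 41 of these cells. With and without a Ptgs2 UMI, Slc5a1 was 233 and 149 CPM in db/m, 146 and 105 in control-fed db/db and 291 and 161 in fructose-fed db/db. Intervals overlapped in db/m (140.5 to 364.4 and 134.7 to 164) and in control-fed db/db (98.7 to 208.8 and 94.84 to 116). Median depths were 2914, 3560 and 4743 UMIs with Ptgs2 and 1843, 1724 and 1568 without. The splits by Cldn10 and Umod did not keep 1 direction. Cells with a Cldn10 UMI were lower in db/m (142 against 159 CPM), and cells with a Umod UMI were lower in fructose-fed db/db (164 against 209.9 CPM), whereas both were higher in the other 2 libraries.

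**Figure D4:**
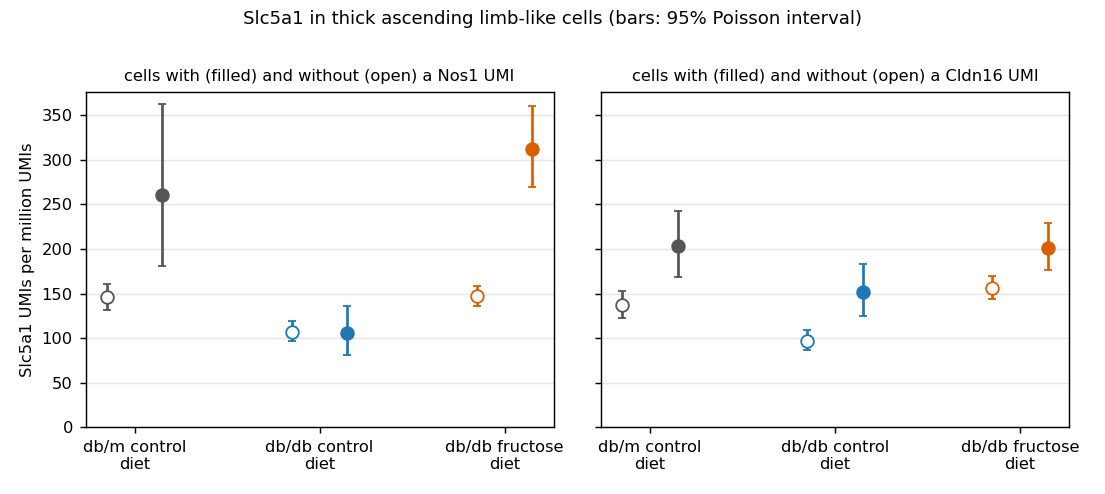
Slc5a1 level (vertical axis, UMIs per 1000000 UMIs, from 0) in thick ascending limb-like cells of each library (horizontal axis), split by whether the cell had a UMI of Nos1 (left) or Cldn16 (right), with 95% Poisson intervals. Filled points (with a UMI) lie above open ones (without) in every pair but the Nos1 split of control-fed db/db, at 106 and 107.

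Slc2a1 was compared in the classes with at least 100 cells per library where it stood above the free RNA floor, a minimum that thin limb-like cells did not reach. In connecting tubule and principal-like cells, which reabsorb sodium and water under hormonal control, it was 195 CPM in db/m and 132 in control-fed db/db (log2 -0.56, 95% interval -0.77 to -0.36) and 158 in fructose-fed db/db (0.26 over control-fed db/db, 0.05 to 0.47). Intercalated-like cells, which secrete acid or base, held 73.5, 49.7 and 85.1 CPM (log2 -0.57 and 0.78). With fructose, 30.5% of 9437 measured genes were past 1.5-fold higher in intercalated-like cells, and the median log2 ratio was 0.32. Size factors moved log2 ratios there by -0.24, which takes the 0.78 under the 1.5-fold mark. Distal convoluted tubule-like cells held 44.9, 31.8 and 35.4 CPM (-0.50 and 0.15), and thick ascending limb-like cells 65.2, 53.7 and 52.4 CPM (-0.28 and -0.04). All 4 classes had their db/m value above that of control-fed db/db, but only in connecting tubule and principal-like cells did the 95% CPM intervals not overlap. They were 54.8 to 96.7 and 38.7 to 62.8 in intercalated-like cells and 34.4 to 57.5 and 26.5 to 37.9 in distal convoluted tubule-like cells. In thick ascending limb-like cells they were 56.1 to 75.3 and 46.7 to 61.5. Intervals of 2 levels can overlap where the interval of their ratio excludes 0, so overlap does not place a difference within counting error. Size factors left the first 3 log2 ratios of control-fed db/db over db/m at -0.43, -0.46 and -0.34. They took the fructose ratio in connecting tubule and principal-like cells to 0.018. In connecting tubule and principal-like cells Slc5a2, a proximal tubule transcript, lay below the floor. It was at 96.1 CPM in db/m and 172 in control-fed db/db, opposite in direction to Slc2a1. The mix of clusters differed between libraries. That class joined cluster 6 (255, 161 and 142 cells, 3.43 times the library depth) and cluster 12 (480, 703 and 713 cells). Intercalated-like cells joined cluster 23 (65, 247 and 145 cells) and cluster 26 (128, 291 and 262). Slc2a1 was not compared within these clusters.

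Other genes of glucose transport and handling give the setting, in 5 lists with 46 genes in all. In control-fed db/db against db/m, 29 were measured at 10 CPM or more in proximal tubule-like cells, 7 were past 1.5-fold higher and 3 lower (median log2 0.25), against the 7.5% and 12.1% of all measured genes. Of the SGLT family, 2 of 6 were higher and none lower: Slc5a10, a sodium-coupled sugar transporter, at 58.1 and 163 CPM and Slc5a9 at 15.5 and 26.3 CPM. Of the GLUT family the only 1 measured was Slc2a5, the fructose carrier GLUT5, at 15.04 and 52.6 CPM. Of 10 partners and regulators, 3 were higher and 2 lower. Sgk1, a kinase that raises membrane transporters, went from 88.2 to 327 CPM, Txnip, a thioredoxin-binding arrestin that lowers glucose uptake and is induced by glucose, from 167 to 404, and its relative Arrdc4 from 7.80 to 16.2. Pdzk1, a scaffold of the brush border, was lower, at 425 and 252 CPM, as was the scaffold Slc9a3r1 at 130 and 64.6. Pdzk1ip1, the accessory protein MAP17 of SGLT2, was at 440 and 305 CPM and did not pass.

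None of the 6 measured sodium pump and potassium channel genes passed in that comparison. Kcnj15, a potassium channel gene, was at 583 and 607 CPM. Of 6 genes of intracellular glucose handling, Hk1, a hexokinase, was higher (14.9 and 28.6 CPM) and Fbp1, a gluconeogenic phosphatase, lower (609 and 395 CPM).

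In fructose-fed db/db against control-fed db/db 30 of the listed genes were measured, and 5 were higher and 2 lower (median log2 0.28), beside the 11.4% and 1.44% of all measured genes and the median shift of 0.25. Size factors left 1 higher and 4 lower. That 1 was Slc5a12, a sodium-coupled lactate transporter and an early marker of the score used here, at 403 and 1125 CPM (log2 1.48). The other 4 higher without size factors were Slc5a10 (163 and 290 CPM), Slc2a8 (7.42 and 11.9), the potassium channel gene Kcnj15 (607 and 920) and Pck1, the gluconeogenic carboxykinase (4569 and 7225). Sgk1 was lower, at 327 and 164 CPM, and so was Hk1, at 28.6 and 18.4. Txnip stood at 404 and 370 CPM and Slc2a5 at 52.6 and 58.3, and neither passed.

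**Figure D5:**
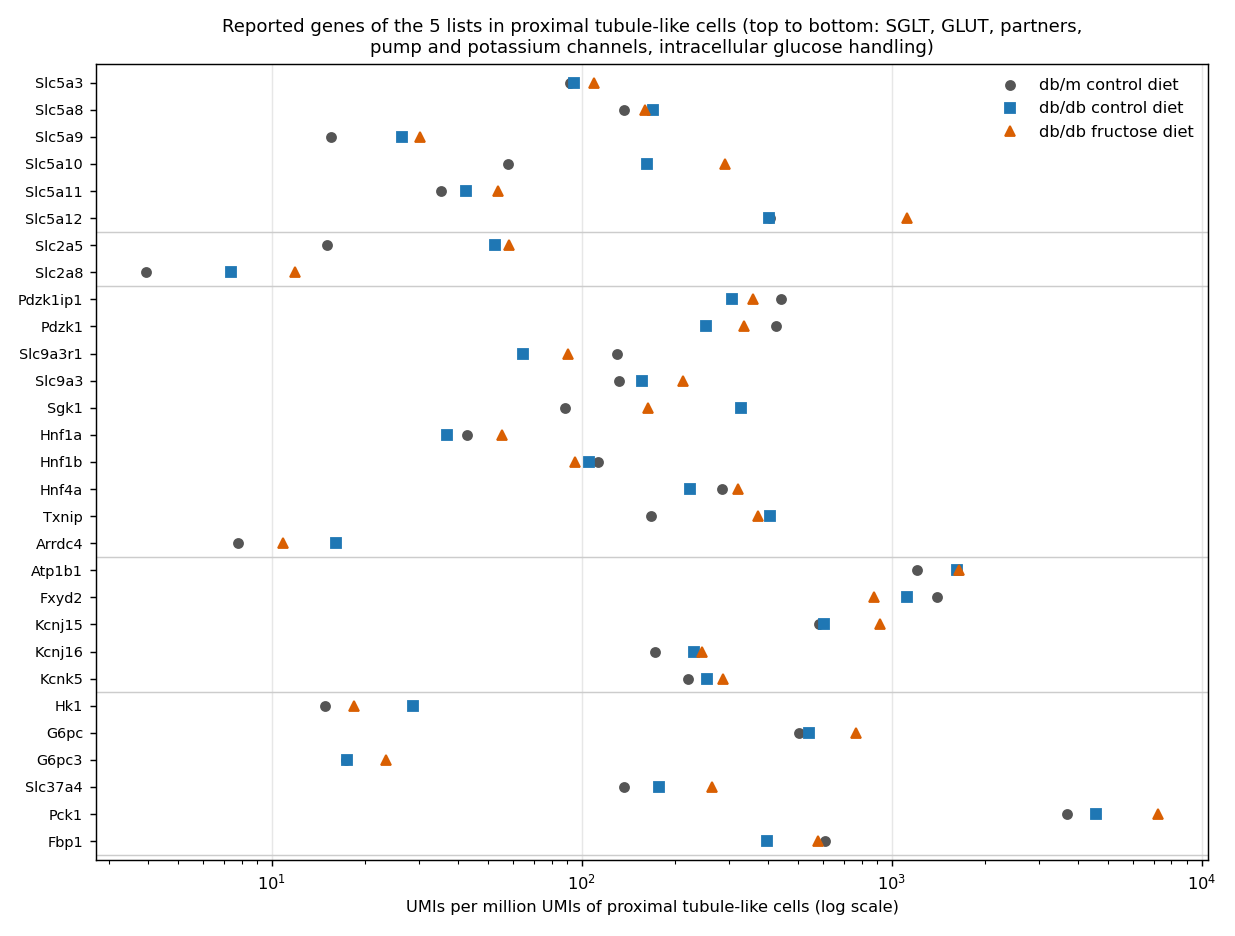
Level of the measured genes of the 5 lists, with 1 gene not reported here left out (vertical axis), in proximal tubule-like cells (horizontal axis, UMIs per 1000000 UMIs, log scale) in the 3 libraries, 1 point per library. Slc2a5, Sgk1 and Txnip stand lowest in db/m, and Slc5a12 stands apart in fructose-fed db/db at 1125.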

How the data were processed

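Droplet single-cell libraries of whole kidney, 1 per group, were deposited as matrices of UMI counts per gene and barcode. Per the submitters' processing notes, the authors made these counts with Cell Ranger 6.0.0 and the mm10 build. The members and gene lists were chosen with earlier results of these data known. Cells were kept from 200 detected genes upward and up to a mitochondrial share of 50%, and the highest Scrublet doublet scores were removed at 0.8% per 1000 barcodes, so that some doublets remain. The rest were clustered in scanpy 1.11.5 (2000 variable genes, 30 components, 15 neighbours, Leiden resolution 1, 32 clusters; no member was among the variable genes).

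Clusters were named from marker lists: at least 3 markers in 10% of cells at 2-fold, a mean log2 fold of 1.1, 0.5 more than for any other class, and at most 5 times the depth of their libraries. The rule was revised after the clusters were seen: folds were taken against clusters of other classes, the minimum was lowered from a stricter value, which named cluster 11, and the depth limit left cluster 4 unnamed (62 cells, 8.73 times the library depth). Names can differ from the authors'.

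Counts were summed per class and library. CPM has an exact Poisson, a ratio an exact conditional binomial and a share of cells a Clopper-Pearson interval, each at 95%. Free RNA was the level of proximal tubule markers in lymphocyte-like cells over that of the library. All 4 members are named, as are the extreme genes of each list and the 5 genes most like each member. Alternatives were scaling, mitochondrial, doublet and clustering choices, free RNA, thresholds and score bins. Leaving out cluster 11, adding cluster 10 or clusters 13 and 22, weighting score bins equally and leaving out Atp11a were chosen after seeing the data. On simulated counts for 8310 genes of control-fed db/db over db/m control, 95.2% of intervals held the true ratio. These were independent Poisson counts without differences between cells or animals, so they check the calculation only. The values of 1 listed gene are not reported here.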

Additional observations from a re-analysis of the deposited data

How the results depend on the processing

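No paired analysis was possible because each group is 1 library and the labels give no replicate numbers. Every ratio rests on 1 library per group, and depth limits Slc2a1 in proximal tubule-like cells, where 99 to 116 UMIs were counted per library. The cause of each move below was not tested.

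For control-fed db/db over db/m in proximal tubule-like cells, the Slc5a2 log2 ratio of 0.50 was 0.56 with UMIs outside the mitochondrial genome, 0.64 with free RNA subtracted, 0.34 without cluster 11, 0.23 with cluster 10, 0.022 with 3 score bins weighted equally and 0.26 with that score lacking Atp11a. The Slc5a1 ratio of 1.03 was 2.72 with free RNA subtracted and 1.32 with equal bins. The Slc2a2 ratio of 0.76 was 0.92 with free RNA subtracted, 0.58 with cluster 10, 0.61 with clusters 13 and 22, 0.55 with equal bins and 0.65 without Atp11a. For fructose-fed db/db over control-fed db/db, the Slc5a2 ratio of 0.39 was 0.21 without mitochondrial UMIs, 0.14 with size factors, 0.50 with free RNA subtracted, 0.54 without cluster 11, 0.64 with cluster 10, 0.46 with equal bins and 0.42 without Atp11a. Slc5a1, at 0.31, was 0.061 with size factors and -0.28 with free RNA subtracted. Slc2a2, at 0.11, was -0.071 without mitochondrial UMIs, -0.14 with size factors and 0.30 with cluster 10. With cluster 10, then, Slc5a2 passed 1.5-fold in this comparison.

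For that same comparison, Slc5a1 in thick ascending limb-like cells, at 0.64, was 0.44 with size factors and 0.94 with free RNA subtracted. Slc2a1 was 0.018 with size factors in connecting tubule and principal-like cells and 1.28 with free RNA subtracted in intercalated-like cells.

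Of the listed genes, 7 higher and 3 lower in control-fed db/db became 12 higher at a minimum of 1 CPM, 4 higher at 50 CPM and 1 lower at 2-fold. The 5 higher and 2 lower with fructose became 2 and 5 without mitochondrial UMIs, 1 and 4 with size factors, and 11 and 4 with cluster 10. The count higher was 8 with free RNA subtracted, 3 without cluster 11 and 1 at 2-fold. The count lower was 5 at 1 CPM, 0 at 2-fold, and 1 at 50 CPM, with doublets kept and at Leiden resolution 2.

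Along the tubule, the Slc5a2 ratio of last to first bin in db/m (-2.53) was -1.71 with 3 common bins, -2.78 with androgen-responsive late genes, -2.70 with at least 10 marker UMIs and -1.83 without Atp11a. In control-fed db/db (-1.52) it was -1.15 without Atp11a. In fructose-fed db/db (-2.11) it was -1.76 with common bins, -2.31 with androgen-responsive genes and -1.44 without Atp11a. The Slc2a2 ratio in db/m (-1.20) was -0.81 with common bins and -0.82 without Atp11a.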

Other observations

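Clusters that stayed without a name also held the proximal transporters. Cluster 22, with Ptgds and Gpx1 among its leading genes, had 188, 93 and 694 cells in db/m, control-fed db/db and fructose-fed db/db, with Slc5a2 at 803, 757 and 1224 CPM and Slc2a2 at 234, 144 and 296 CPM. Its Slc5a1 was 7.77, 17.9 and 17.6 CPM, under that of proximal tubule-like cells in each library. It carried 15%, 1.09% and 13.3% of all Slc2a2 UMIs, and 5.08%, 0.862% and 6.19% of the UMIs of all genes. Cluster 13, led by Mki67 and other genes of dividing cells, had 29, 82 and 133 cells, with Slc5a2 at 865, 925 and 1086 CPM. Cluster 10, led by mitochondrial genes, had Slc5a2 at 377, 418 and 604 CPM and Slc5a1 at 58.0, 37.5 and 80.1 CPM, in 89, 3025 and 446 cells.

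Cluster 4, seen in 36 control-fed db/db and 26 fructose-fed db/db cells and in no db/m cell, had distal convoluted tubule markers at a median depth of 15834 and 9654 UMIs. Slc5a2 stood there at 1068 and 1010 CPM, a proximal tubule level. In the control-fed db/db library the cluster held 6.34% of all Slc5a2 UMIs and 3.29% of the UMIs of all genes.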
